A study of Homo sapiens with 9 samples.

Results

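The genes described here are 10 outputs of the transcription factor NF-kB, chosen by name: the chemokines CXCL8, CXCL1, CXCL2 and CCL2, the cytokine IL6, the adhesion molecule ICAM1, the mitochondrial superoxide dismutase SOD2, the survival gene IER3, and the nuclear cofactors BCL3 and NFKBIZ. Transcripts were assembled for 7 of the 10 in at least 1 library, out of 14837 genes that could be named in all, and these 7 were among the 12329 genes tested. The cells were WM3248, a melanoma line of human origin that stands here as the only line studied. They received ARN22089 at 4 or 6 µM, or DMSO alone (0 µM), and were lysed 24 h later, with 3 libraries of poly-A selected RNA per dose. The compound was built to block the contact between CDC42, RHOJ or RHOQ, small GTPases that shape the cytoskeleton, and effector kinases such as PAK. The labels name no genetic change in any group. Because they do not state that replicates were separate cultures, the p-values cover the spread between libraries only, and that spread may be technical.

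NF-kB is a family of factors that inhibitor proteins hold in the cytoplasm until a signal, often from a cytokine receptor, leads to their breakdown. Once in the nucleus the factors switch on chemokines and cytokines that call in leukocytes, adhesion molecules, survival and antioxidant genes, and the genes of their own inhibitors, which end the response. In melanoma cells, secreted CXCL8 and CXCL1 are known as growth and motility factors as well as leukocyte attractants.

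Each library was assembled separately into 26506 to 30798 transcripts, from which 12072 to 12760 genes were named, and its depth relative to the median library ran from 0.802 (4 µM, replicate 3) to 1.343 (6 µM, replicate 1). Levels are in FPKM, which counts sequenced fragments relative to transcript length and to the library's total, and read counts are not known. All 8 melanocyte markers examined were assembled, with summed levels of 406 to 1389 FPKM at 0 µM, then 1246 to 2359 at 4 µM and 1385 to 2054 at 6 µM, while 7 of the 9 leukocyte and endothelial markers, among them PTPRC, CD14, PECAM1 and VWF, had no transcript in any library. The other 2 were LYZ and CD68, and their summed level was at most 4.45 FPKM in all libraries except 4 µM replicate 3 (146). Of 6 fibroblast and keratinocyte markers, 5 were assembled in some library. Their summed levels were 11.9 to 32.1 FPKM at 0 µM, up to 31.2 at 4 µM and 15.5 to 26.1 at 6 µM. LUM was the highest of them in every library, at 6.72, 19.5 and 21.1 FPKM at 0 µM. There it lay above the melanocyte markers PMEL, MLANA, TYR and TYRP1 and below DCT, SOX10 and S100B. The source of these transcripts was not tested. Differences between doses are log2 differences of FPKM + 1 with their standard error, and adjusted p-values are those of limma with Benjamini-Hochberg adjustment at a threshold of 0.05. In bulk RNA, fewer cells that express a gene and less RNA per cell cannot be told apart.

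The promoters show what most of these genes have in common. Of the 10, RefSeq's GRCh38 table holds the sequence upstream of the start for 8. In 6 of these 8 the 250 bases before a start contained the NF-kB type motif GGANNTTCC, read on both strands, which 3.84% of all 35116 windows contained. Counted by window, as some genes have several, it was 6 of 12. The genes were chosen by name as outputs of NF-kB, so a motif of its type is no independent finding, and the count is a description. The stretches with the motif are shown with the NF-kB type motif in capitals. In CXCL8 the AP-1 type motif TGANTCA, found in 6.57% of windows, is in capitals too. The stretches are CXCL8 at chr4:73740424-73740568 on the plus strand, CXCL1 at chr4:73869293-73869392 (plus), CXCL2 at chr4:74099196-74099295 (minus), IL6 at chr7:22727100-22727199 (plus), ICAM1 at chr19:10270920-10270979 (plus) and NFKBIZ at chr3:101827740-101827799 (plus).
CXCL8: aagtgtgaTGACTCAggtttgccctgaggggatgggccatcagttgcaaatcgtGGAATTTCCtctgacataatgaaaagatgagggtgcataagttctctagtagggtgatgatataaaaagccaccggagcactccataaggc
CXCL1: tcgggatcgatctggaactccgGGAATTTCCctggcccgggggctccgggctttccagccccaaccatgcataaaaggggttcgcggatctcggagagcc
CXCL2: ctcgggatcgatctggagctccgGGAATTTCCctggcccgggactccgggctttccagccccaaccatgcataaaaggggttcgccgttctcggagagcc
IL6: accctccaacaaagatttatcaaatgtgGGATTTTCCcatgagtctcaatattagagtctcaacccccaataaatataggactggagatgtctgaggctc
ICAM1: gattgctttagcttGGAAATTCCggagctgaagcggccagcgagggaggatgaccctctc
NFKBIZ: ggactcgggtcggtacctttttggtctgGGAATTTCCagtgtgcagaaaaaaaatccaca

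The motif ended close to the start in the chemokine genes and IL6: 83 bases before it in CXCL8, 70 in CXCL1, 69 in CXCL2 and 64 in IL6. It lay further out in ICAM1, ending 178 bases before the start, and in NFKBIZ, ending 214 bases before the first of its 2 annotated starts. The CXCL1 and CXCL2 stretches were alike at 95 of 101 aligned positions, gaps included, so their 2 matches are not separate cases. The CXCL8 stretch was the only one of the members' windows with the AP-1 type motif. Neither the window of BCL3 nor any of the 4 windows of SOD2 contained GGANNTTCC, which says only that these letters are not in those 250 bases. A match is a description of the sequence, and whether NF-kB was bound there was not measured.

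Of the 10 genes, 3 were not detected. CXCL2, CCL2 and IL6 had no assembled transcript on either strand in any of the 9 libraries, at any dose, although CXCL2 and IL6 have the motif as close to the start as CXCL8. CXCL2 (chromosome 4, 74097040 to 74099195) encodes a close relative of CXCL1, CCL2 (chromosome 17, 34255285 to 34257203) a monocyte attractant, and IL6 (chromosome 7, 22727200 to 22731998) an inflammatory cytokine. A gene with no transcript may be one whose reads were too few to assemble. Among spliced transcripts of 800 to 1600 bases in each library, the 5th percentile of the level was 0.621 to 0.968 FPKM and the lowest 0.250 to 0.397 FPKM, which is the range in which these genes could lie unseen.

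CXCL8 (chromosome 4, 73740569 to 73743716, plus strand), the main neutrophil attractant of the group, was steady at 0 µM and spread widely under the compound. Its summed level was 3.27, 3.21 and 3.09 FPKM in replicates 1, 2 and 3 at 0 µM, then 9.48, 9.30 and 1.72 at 4 µM, and 26.2, 7.14 and 5.86 at 6 µM. Every library at 6 µM lay above every library at 0 µM, whereas at 4 µM replicate 3 lay below them all. The log2 difference of 6 from 0 µM was 1.46 ± 0.63 and did not pass the test (adjusted p = 0.279). At 4 µM it was 0.67 ± 0.63 (adjusted p = 0.705). Replicate 1 sets much of the size at 6 µM: without it the difference was 0.83.

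The assembled structure of CXCL8 matters for the middle dose. In 8 libraries the gene was 1 transcript of 4 exons, 1090 to 1630 bases long, and the shortest of these was 4 µM replicate 3. In 4 µM replicate 2 it was broken into a 3-exon piece of 352 bases at 9.30 FPKM and a piece of 1389 bases without introns at 1.56 FPKM. A value less open to such breaks was therefore added after the data were seen, here called the core exon value: FPKM per base, averaged over those exonic bases of a gene that all 9 libraries had assembled. By that value CXCL8 in 4 µM replicate 2 was at 4.35 FPKM in place of 9.30, and the other 8 libraries kept their levels. The 4 µM difference was then 0.35 ± 0.55 (adjusted p = 0.784). Without 4 µM replicate 1 it was -0.14.

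CXCL1 (chromosome 4, 73869393 to 73871308, plus strand), a ligand of the same receptor CXCR2, lies 125676 bases beyond CXCL8. Its level was 4.13, 5.72 and 5.63 FPKM at 0 µM, then 11.1, 4.74 and 2.31 at 4 µM, and 18.0, 8.20 and 5.48 at 6 µM. Here the 6 and 0 µM libraries overlapped, because 6 µM replicate 3 lay below 2 of the 0 µM libraries. The log2 difference was 0.77 ± 0.51 at 6 µM (adjusted p = 0.468) and 0.00 ± 0.51 at 4 µM (adjusted p = 1). At 4 µM replicate 1 lay above and replicate 3 below all 0 µM libraries. The same 2 libraries, replicate 1 at 4 µM and replicate 1 at 6 µM, were the highest of their dose for both chemokines, and replicate 3 was the lowest of both treated doses. Without 6 µM replicate 1 the CXCL1 difference was 0.34.

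CXCL1 shares 989 of 1120 aligned positions (88.3%) with CXCL2 over the GENCODE transcripts, and 827 of 1145 (72.2%) with CXCL3. The sources used here do not say how reads that fit more than 1 of these genes were assigned, so the CXCL1 level could include reads of its relatives. CXCL3 was assembled in only 3 libraries, at 0.966 FPKM in 0 µM replicate 3, 2.11 in 4 µM replicate 1 and 1.63 in 6 µM replicate 1. CXCL8 aligned with CXCL1 over just 110 positions, and so is not open to this uncertainty.

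**Figure D1:**
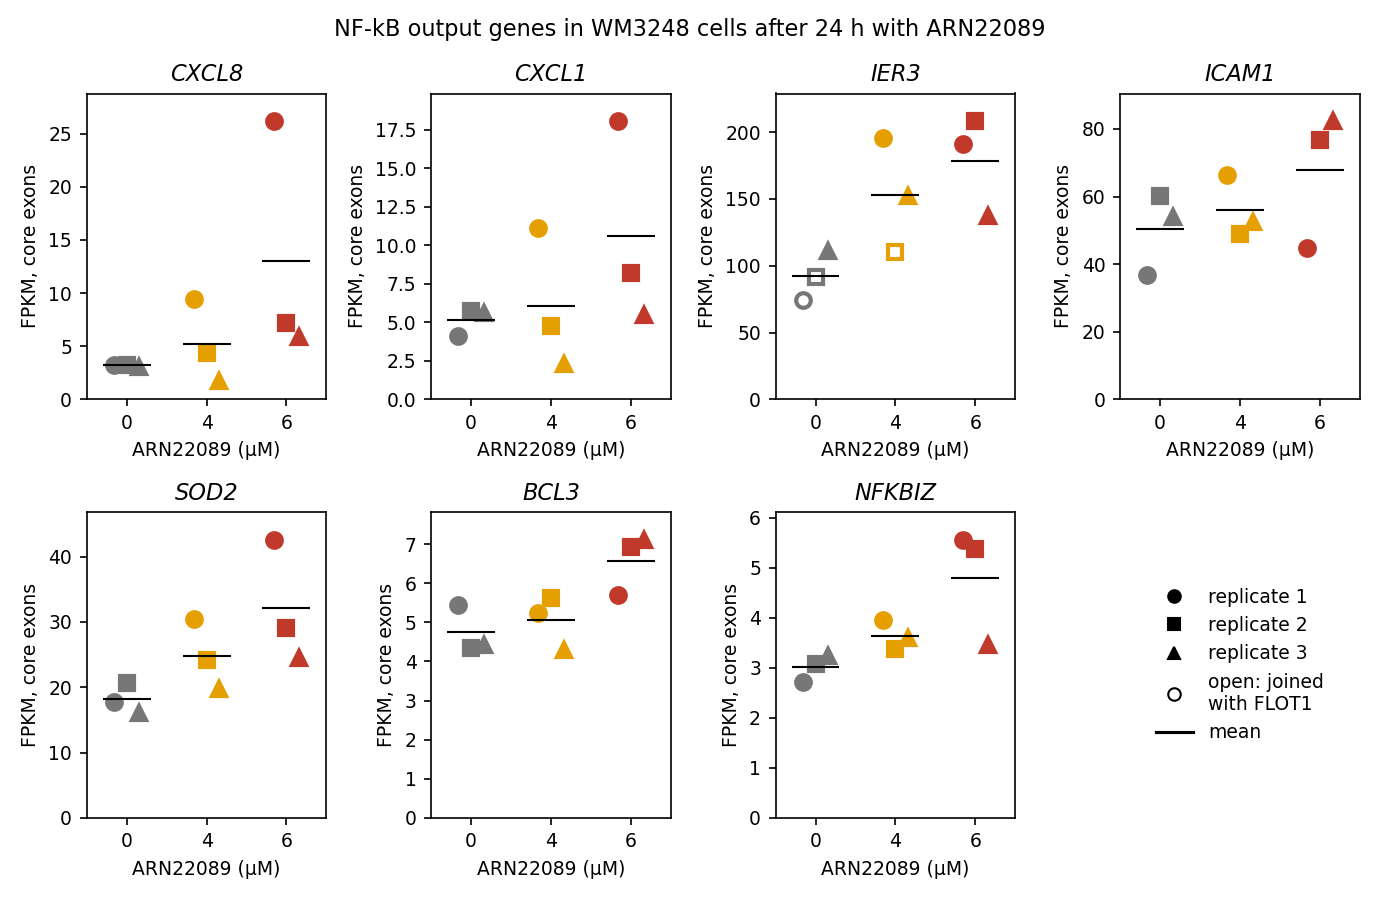
Core exon value in FPKM (vertical axes, linear, from 0) of the 7 assembled NF-kB output genes in each library at 0, 4 and 6 µM ARN22089 (horizontal axes), where shapes mark the replicate number, bars the mean of 3 libraries, and open symbols the 3 libraries in which IER3 was joined to FLOT1. CXCL8, IER3, SOD2, BCL3 and NFKBIZ have all 6 µM libraries above all 0 µM libraries, while CXCL1 and ICAM1 overlap.

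IER3 (chromosome 6, 30743199 to 30744547, minus strand) encodes an early-response protein that protects cells from death signals, and it was the most abundant of the members. Assembled as a gene of its own it was at 111 FPKM in the single 0 µM library where this was possible (replicate 3), at 202 and 152 FPKM in 4 µM replicates 1 and 3, and at 191, 214 and 137 FPKM in the 6 µM libraries. The libraries with a separate transcript thus all lay above the one at 0 µM. In 0 µM replicates 1 and 2 and 4 µM replicate 2, IER3 had no transcript of its own but was the first part of a transcript that ran on through its neighbour FLOT1, 511 bases away on the same strand. FLOT1 encodes a membrane scaffold protein.

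The joined transcripts had 74.2 FPKM in 0 µM replicate 1, 91.7 in 0 µM replicate 2 and 110 in 4 µM replicate 2, a single level for both genes. Where FLOT1 stood alone it was at 82.2 FPKM in 0 µM replicate 3, at 106 and 81.8 in 4 µM replicates 1 and 3, and at 102, 92.6 and 81.6 in the 6 µM libraries, a range of 81.6 to 106 in which 4 and 6 µM lie on both sides of 0 µM. In the joined libraries the IER3 level cannot be told apart from that of FLOT1. Summed levels list IER3 at 0 there, which is why no mean or fold is given for them.

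By the core exon value, which takes the joined level for IER3 where the genes were joined, IER3 was at 74.2, 91.7 and 111 FPKM at 0 µM, then 195, 110 and 152 at 4 µM, and 191, 208 and 137 at 6 µM. It was higher in every 6 µM library than in any 0 µM library. The log2 difference of 6 from 0 µM was 0.94 ± 0.25 and passed the test (adjusted p = 0.0487). It did not with the consensus exon value, over bases assembled in at least 50% of libraries (0.92, adjusted p = 0.0700, or 0.0972 with the replicate number as a block), with the core exon value and the block (adjusted p = 0.0657), nor without any single one of 7 of the 9 libraries (adjusted p up to 0.167), and it rests on 2 joined libraries of the 3 at 0 µM. At 4 µM the difference was 0.70 ± 0.25 (adjusted p = 0.234).

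**Figure D2:**
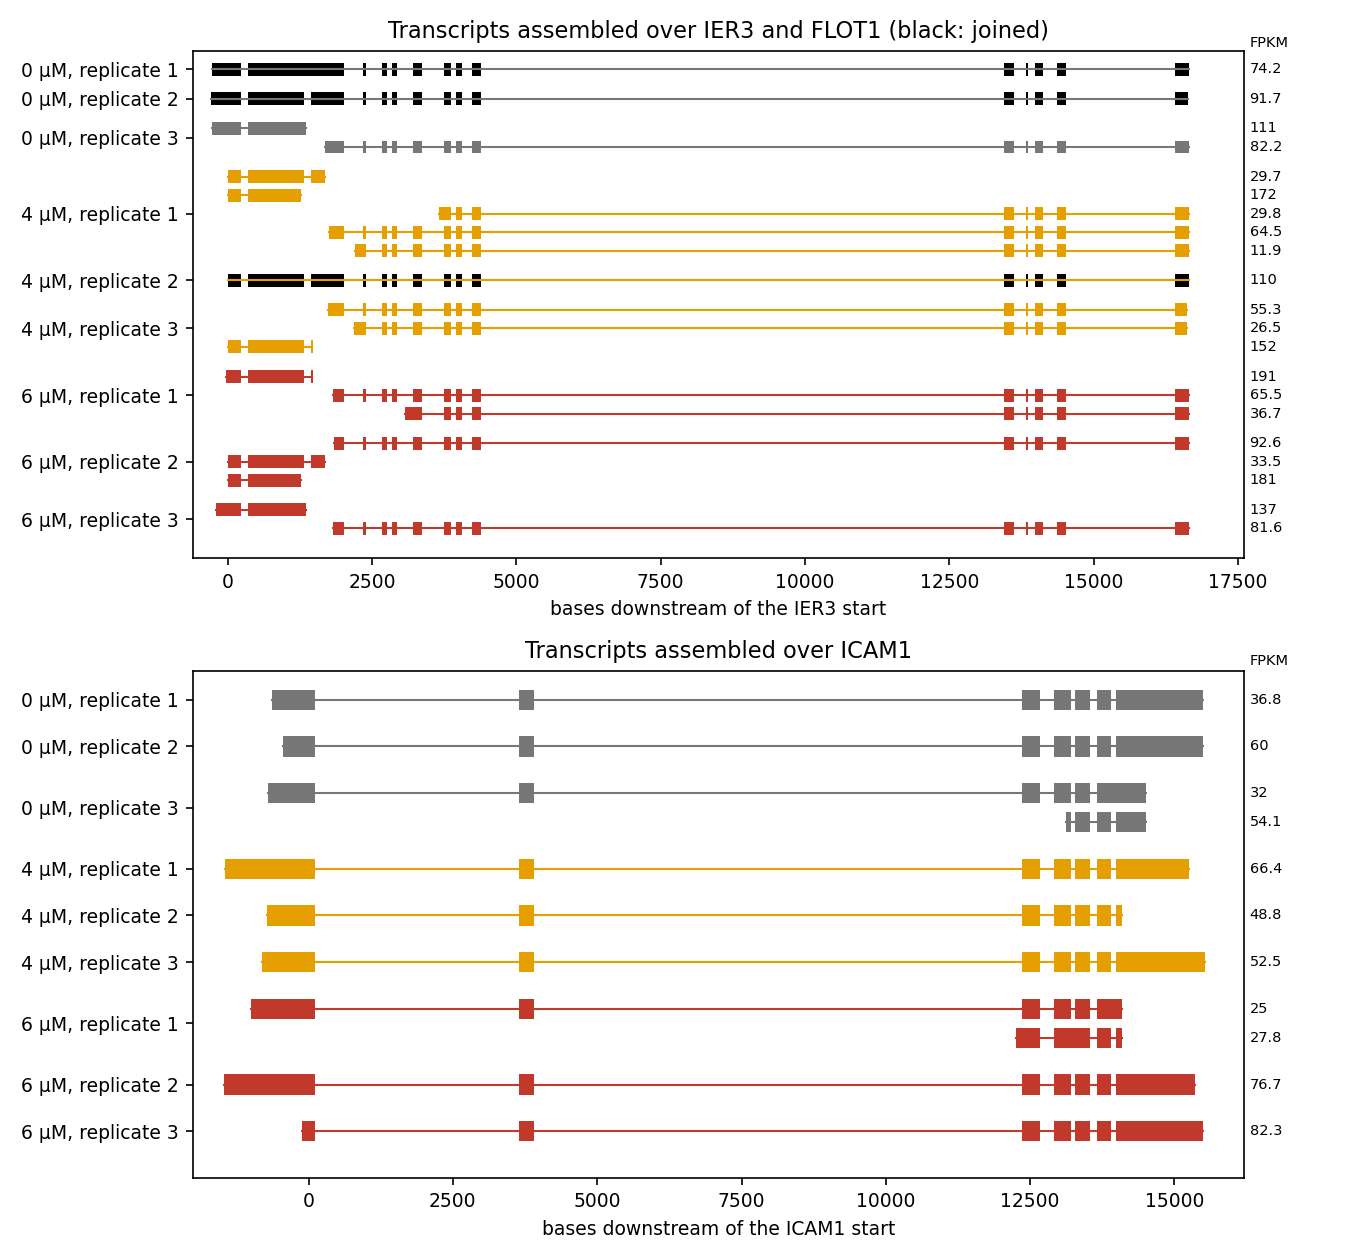
Transcripts assembled in each library over IER3 and FLOT1 (upper panel) and over ICAM1 (lower panel), drawn to scale against the distance in bases downstream of the start of IER3 or ICAM1, with boxes for exons, lines for introns and the FPKM of each transcript at the right. Black boxes mark the joined transcripts of 0 µM replicates 1 and 2 and 4 µM replicate 2, and the last ICAM1 exon is cut short in 0 µM replicate 3, 4 µM replicate 2 and 6 µM replicate 1.

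ICAM1 (chromosome 19, 10271120 to 10286615, plus strand), the surface ligand of leukocyte integrins, showed no difference beyond the spread of the libraries. Its summed level was 36.8, 60.0 and 86.1 FPKM at 0 µM, then 66.4, 48.8 and 52.5 at 4 µM, and 52.8, 76.7 and 82.3 at 6 µM. The 3 doses overlapped throughout. The highest 0 µM value came from replicate 3, in which 2 overlapping transcripts of 32.0 and 54.1 FPKM were added up and the end of the last exon was missing.

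With the core exon value, over 1664 bases, ICAM1 was at 36.8, 60.0 and 53.9 FPKM at 0 µM, then 66.4, 48.8 and 52.5 at 4 µM, and 44.9, 76.7 and 82.3 at 6 µM. The log2 differences were 0.41 ± 0.26 at 6 µM (adjusted p = 0.337) and 0.17 ± 0.26 at 4 µM (adjusted p = 0.779). At 4 µM the summed value gave -0.05 ± 0.31, so no direction can be given for that dose. The 6 µM library that lay lowest was replicate 1, the one in which CXCL8, CXCL1 and SOD2 were highest.

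SOD2 (chromosome 6, 159669069 to 159762281, minus strand), the manganese superoxide dismutase that removes superoxide in mitochondria, had summed levels of 31.0, 20.6 and 16.1 FPKM at 0 µM, then 51.4, 24.2 and 43.9 at 4 µM, and 42.6, 29.1 and 36.5 at 6 µM. These overlapped between doses. The log2 difference was 0.78 ± 0.32 at 4 µM (adjusted p = 0.445) and 0.69 ± 0.32 at 6 µM (adjusted p = 0.311). Over the 4079 bases assembled everywhere the order was cleaner: 17.7, 20.6 and 16.1 FPKM at 0 µM, then 30.5, 24.2 and 19.7 at 4 µM, and 42.6, 29.1 and 24.5 at 6 µM. Each replicate number gave its lowest level at 0 µM and its highest at 6 µM. The difference of 6 from 0 µM was then 0.76 ± 0.22 (adjusted p = 0.0651), and it passed with the replicate number as a block (adjusted p = 0.0288).

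BCL3 and NFKBIZ encode nuclear proteins of the inhibitor family that bind NF-kB on DNA and change which genes it drives. BCL3 (chromosome 19, 44747705 to 44760044, plus strand) was at 5.45, 4.35 and 4.76 FPKM at 0 µM, then 5.24, 5.63 and 3.84 at 4 µM, and 5.71, 8.61 and 7.11 at 6 µM. All 6 µM libraries lay above all 0 µM libraries, by a narrow margin in replicate 1. The log2 difference was 0.46 ± 0.20 (adjusted p = 0.270), and 0.40 ± 0.14 with the core exon value (adjusted p = 0.105). At 4 µM it was 0.00 ± 0.20 (adjusted p = 0.998), with the libraries on both sides of those at 0 µM.

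NFKBIZ (chromosome 3, 101827990 to 101861022, plus strand) was at 2.72, 4.26 and 3.64 FPKM at 0 µM, then 5.60, 4.01 and 3.92 at 4 µM, and 7.77, 8.17 and 3.48 at 6 µM. Replicate 3 at 6 µM stayed within the 0 µM range. The log2 difference was 0.66 ± 0.30 (adjusted p = 0.296). With the core exon value it was 0.51 ± 0.16 (adjusted p = 0.0767), from levels of 5.56, 5.38 and 3.45 FPKM at 6 µM against 2.72, 3.08 and 3.23 FPKM at 0 µM. Over the 9 fits that each lack 1 library it ranged over 0.41 to 0.69 and passed once, without 6 µM replicate 3 (adjusted p 0.0209 to 0.236).

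The 2 annotated starts of NFKBIZ lie 21524 bases apart, and the window with the motif printed above belongs to the first. Transcripts that reached back to the first start were assembled in 3 libraries, at 1.85 FPKM in 4 µM replicate 1, 0.990 in 4 µM replicate 3 and 1.08 in 6 µM replicate 2, and in no 0 µM library. Transcripts that began near the second start were assembled in all 3 libraries at 0 µM, at 2.72, 2.48 and 2.73 FPKM, and in 4 of the 6 treated ones. At such low levels a first exon may escape assembly, so the use of the starts at each dose was not tested.

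**Figure D3:**
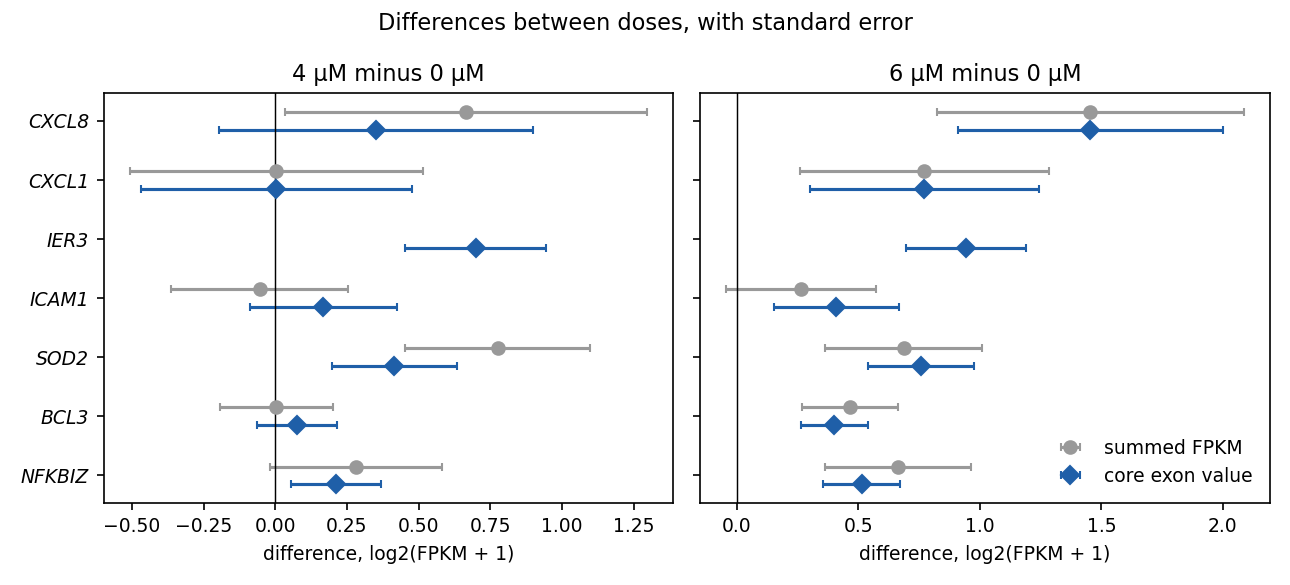
Log2 differences of FPKM + 1 (horizontal axes) for 4 minus 0 µM (left) and 6 minus 0 µM (right) in the 7 assembled members (rows), with the standard error of the limma fit as bars, for the summed value (grey circles; not drawn for IER3, which is listed at 0 in 3 libraries) and the core exon value (blue diamonds). At 6 µM all points are above 0, from 0.26 for ICAM1 to 1.46 for CXCL8, and with the core exon value 1 of the 7 genes, IER3, passed the test.

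Counted together, none of the 7 members passed limma's test with the summed value at 4 µM, at 6 µM, or between 6 and 4 µM. Over all genes 0.073% passed for 4 against 0 µM, 0.308% for 6 against 0 µM and 0.0243% for 6 against 4 µM, so a count of 0 is near the background. At an unadjusted p below 0.05 there were 1, 2 and 1 members, all higher at the higher dose, where 6.16%, 8.08% and 1.74% of all genes were higher at that level. For core exon values the share of all genes called was 0.0263% for 4 against 0 µM, where no member was called, and 7.24% for 6 against 0 µM, where 1 of 7 was. Members higher at an unadjusted p below 0.05 numbered 1 of 7 at 4 µM, where 7.88% of all genes were, and 5 of 7 at 6 µM, where 10.3% were. With the replicate block, 10.6% of all genes were called for 6 against 0 µM and 2 of the members, SOD2 and CXCL8 (adjusted p = 0.0499), but not IER3.

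The direction was more uniform than the calls. By core exon values all 7 members had a positive difference at 6 µM and at 4 µM, as had 4901 and 5426 of all 11386 genes. The medians were 0.76 and 0.21 against -0.05 and -0.02 over all genes tested. At 4 µM CXCL1 (0.00 ± 0.47) and BCL3 (0.08 ± 0.14) have no direction beyond their standard error. Nor are the members 7 separate observations. Over the 9 libraries CXCL8 correlated with CXCL1 (r = 0.949) and SOD2 (r = 0.926), though hardly with ICAM1 (r = 0.074). IER3 set aside for its zeros, the other 6 were also positive at 6 µM with the summed value, as deposited, rescaled to a fixed sum or scaled to the upper quartile. As deposited, 5717 of all 12329 genes were. Rescaling to a fixed sum moved the median of all genes itself to 0.31 at 4 µM and 0.23 at 6 µM, and the 6 µM differences of these 6 members stayed above that shift, from 0.56 for ICAM1 upward. In 5 of the 7 (CXCL8, IER3, SOD2, BCL3 and NFKBIZ) the 6 µM core levels lay wholly above those at 0 µM, a pattern that 12.3% of all genes showed. At 4 µM it held for 1 of 7, NFKBIZ, against 10.5% of all genes. With the summed value it held for 3 of 7 at 6 µM, IER3 with its zeros among them, and for 0 of 7 at 4 µM. Of all 12329 genes, 1343 and 1227 showed it. The core levels of IER3 in 0 µM replicates 1 and 2 are those of the transcripts joined with FLOT1.

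The treated libraries did not respond evenly. Of the 3 libraries at 4 µM, replicate 1 had the highest core level for 6 of the 7 members and replicate 3 the lowest for 4. At 6 µM replicate 1 was the highest for 4 and replicate 3 the lowest for 5. Relative depth was greatest in 6 µM replicate 1 and least in 4 µM replicate 3, and the part of depth in these levels was not tested. At 0 µM replicates 1, 2 and 3 were the highest for 2, 3 and 2 members and the lowest for 4, 1 and 2.

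Other genes of the pathway were examined in fixed lists, written with earlier results known. These lists hold inhibitors, subunits, kinases and adaptors, upstream receptors, other targets of NF-kB and receptors of the members' proteins. Both genes that passed at 6 µM with the summed value encode inhibitors of NF-kB and are themselves known targets of the factor. TNFAIP3 (chromosome 6, 137866349 to 137883312), the ubiquitin-editing enzyme A20, was at 2.92, 3.44 and 3.45 FPKM at 0 µM, then 8.91, 6.58 and 6.46 at 4 µM, and 17.1, 13.7 and 12.4 at 6 µM, with no overlap between any 2 doses. It rose by 1.84 ± 0.18 at 6 µM (log2, adjusted p = 0.00965), and passed without any single library (adjusted p at most 0.0299). With the replicate block its adjusted p was 0.0561.

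NFKBIA (chromosome 14, 35401513 to 35404749), which encodes IkB-alpha, the inhibitor broken down on activation, was at 21.4, 12.4 and 14.8 FPKM at 0 µM, then 89.1, 51.4 and 30.5 at 4 µM, and 96.7, 99.8 and 75.5 at 6 µM. Again the 4 µM libraries descended in the order seen for CXCL8 and CXCL1. It rose by 2.44 ± 0.36 at 6 µM (log2, adjusted p = 0.0492), a call kept in 2 of the 9 fits that leave out a library and lost with the block (adjusted p = 0.0561). These were 2 of the 8 genes in the list of inhibitors, and the only 2 of the 73 tested pathway genes (members not included) that passed with the summed value at 6 µM. TNIP2, the other abundant inhibitor, was at 0.56 ± 0.14 (adjusted p = 0.102). No gene of these lists passed at 4 µM with either value.

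By core exon values, 10 of 69 pathway genes (members again not included) passed at 6 µM, 7 higher and 3 lower, where 7.24% of all genes passed. Besides NFKBIA and TNFAIP3, the genes that rose were NFKBIE, another inhibitor (1.24 ± 0.29, adjusted p = 0.0363), RELB, a subunit of NF-kB (1.39 ± 0.31, adjusted p = 0.0313), BIRC3, an inhibitor of cell death (1.77 ± 0.33, adjusted p = 0.0180), BCL2A1, a survival protein of the BCL2 family (0.86 ± 0.20, adjusted p = 0.0363), and ATF3, a stress-induced transcription factor (1.02 ± 0.25, adjusted p = 0.0396). Those that fell were PLAUR, the urokinase receptor (-0.60 ± 0.15, adjusted p = 0.0425), CHUK, the kinase IKK-alpha (-0.64 ± 0.15, adjusted p = 0.0388), and TNFRSF12A, the receptor of TWEAK (-1.11 ± 0.27, adjusted p = 0.0431). By this value BIRC3 was at 1.51, 0.842 and 0.679 FPKM at 0 µM, then 4.59, 3.31 and 1.82 at 4 µM, and 8.59, 6.58 and 3.22 at 6 µM, once more with replicate 1 highest and replicate 3 lowest at each treated dose. With the summed value replicate 2 was the highest at 6 µM, at 8.96 FPKM. With the consensus exon value 3 of these 10 passed, NFKBIA, TNFAIP3 and BIRC3. With the core exon value and the replicate block 17 pathway genes passed, where 10.6% of all genes did. Among the 17 were 9 of the 10, without TNFRSF12A, and 8 others. Of these others PTX3, PTGS2, KLF6, ZC3H12A, NFKBIB and TRADD had positive differences, and IL1RAP and IL6ST negative ones. The 10 calls came down to 1 without 6 µM replicate 1 or without 6 µM replicate 2, where the count over all genes fell to 11 and 14, against 824 with all libraries.

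**Figure D4:**
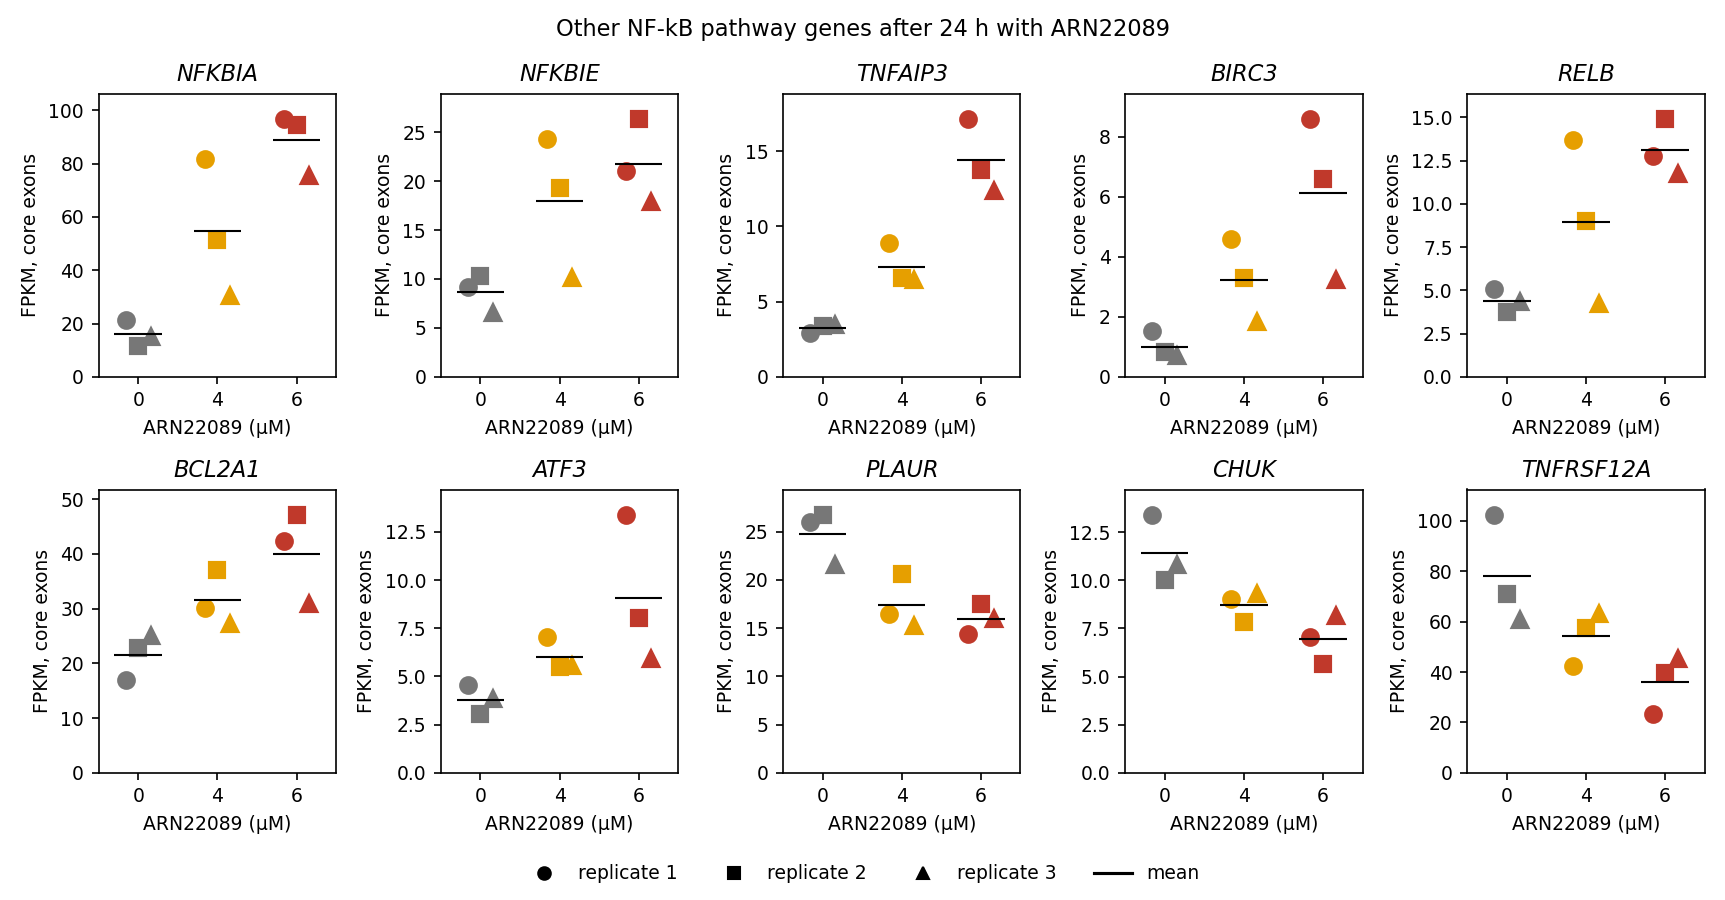
Core exon value in FPKM (vertical axes, linear, from 0) at 0, 4 and 6 µM ARN22089 (horizontal axes) of the 10 pathway genes that passed limma's test between 6 and 0 µM with this value, with shapes for the replicate number and bars for the mean of 3 libraries. NFKBIA, NFKBIE, TNFAIP3, BIRC3, RELB, BCL2A1 and ATF3 are higher at 6 than at 0 µM in every library, and PLAUR, CHUK and TNFRSF12A are lower in every library.

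By role, the other targets of NF-kB were 63 genes, of which 49 were assembled in some library and 38 tested. None of the 38 passed at 6 µM with the summed value, where 11 were higher and 3 lower at an unadjusted p below 0.05. Of all genes 8.08% were higher and 9.65% lower at that level. By core exon values 3 of 35 were called higher (BIRC3, BCL2A1 and ATF3) and 1 lower (PLAUR). Among all 11386 genes tested with that value, 301 were called higher and 523 lower. The most abundant tested genes of these lists were CCL20 and CXCL16 among the chemokines, LIF and PTX3 among the cytokines, CD44 and SDC4 at the cell surface, and SQSTM1 and BCL2A1 among the survival genes. Of these 8, only BCL2A1 passed at 6 µM with the core exon value and none with the summed value. PTX3, a pattern-recognition protein, was at 0.55 ± 0.15 with the core exon value (adjusted p = 0.0534, or 0.0436 with the replicate block).

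Several classical targets were near or below what could be assembled. TNF, the cytokine that is itself a strong activator of the pathway, was assembled only in 4 µM replicate 1 at 1.18 FPKM and in 6 µM replicates 1 and 2 at 1.50 and 0.935 FPKM. CXCL10, a T cell attractant, had no transcript at 0 µM, then 2.18 and 1.30 FPKM in 4 µM replicates 1 and 2, and 3.59, 2.31 and 1.04 FPKM in the 6 µM libraries. Both were listed at 0 in the other libraries, which may mean that they were not assembled. The mean of TNF was below the filter of 1 FPKM, and CXCL10 did not pass the test with the summed value.

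Among the 5 subunits none passed with the summed value, and the 2 most abundant, NFKB1 and RELA, had differences of -0.35 ± 0.19 and -0.32 ± 0.38 at 6 µM. For NFKB1 the core exon value gave 0.05 ± 0.11, so no direction can be given. The 13 kinases and adaptors gave no call with the summed value, with IRAK1 at -0.60 ± 0.14 (adjusted p = 0.0900). IKBKG, the most abundant other member of that list, was listed at 0 in 3 treated libraries and at up to 50.8 FPKM in another, and gives no usable difference. Of the 9 upstream receptors, TNFRSF12A was called only with the core exon value, and that call was lost with the replicate block (adjusted p = 0.0526). IL1RAP was called with the core exon value and the block (-0.79, adjusted p = 0.0173), but not without the block (adjusted p = 0.0527). LTBR was at 0.41 ± 0.32 with the summed value and at -0.01 ± 0.21 with the core exon value, and so has no stable direction.

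The receptors through which the members' proteins act were mostly undetected. CXCR1, CXCR2, ACKR1, CCR2 and the integrin chains ITGAL, ITGAM and ITGB2 had no assembled transcript in any library. CCR4 was assembled in some library, with a mean below the filter of 1 FPKM. The IL6 receptor chains IL6R and IL6ST were both assembled. IL6ST was at 13.6 to 15.1 FPKM at 0 µM, 7.13 to 11.0 at 4 µM, and 8.52 to 10.9 at 6 µM, with every treated library below every library at 0 µM. It did not pass the test at 6 µM (-0.51 ± 0.17, adjusted p = 0.187) or at 4 µM (-0.63 ± 0.17, adjusted p = 0.325), though at 6 µM it did with the core exon value and the replicate block (-0.55, adjusted p = 0.0423).

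The genes whose core exon values were most like the mean standardised level of the 7 members, by Pearson's r over the 9 libraries, were NPIPB15 (r = 0.962), TRIM11 (r = 0.961), RPL10A (r = 0.957), BCL6 (r = 0.957) and HERPUD2 (r = 0.956). With the summed value and IER3 left out for its zeros, the 5 closest to the mean of the other 6 members were MST1 (r = 0.959), USF2 (r = 0.956), ABCA10 (r = 0.951), CXCL10 (r = 0.945) and BCL6 (r = 0.943). These are the highest values among all genes tested, over libraries that share their doses, and serve as a description. CXCL10 is itself on the lists of other targets. For ICAM1 the closest by the summed value were DCAF17, TOMM22 and ZNF226, and for SOD2 TMEM184B, NCKAP5L and CYP1A1. For IER3, by core exon values, they were DUSP10, RPL9P29 and FLOT1 (r = 0.960), the last of which shares the joined transcripts with it.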

How the data were processed

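Poly-A selected RNA of WM3248 cells was sequenced, 3 libraries at each of 0, 4 and 6 µM ARN22089. The treatment labels gave the groups and the titles the replicate numbers. The deposited files are 1 transcript assembly per library, with no gene names. Cufflinks 2.2.1, TopHat2 2.1 with Bowtie2 2.2.7, Trimmomatic, SAMtools 1.9 and R 4.0.3 are named in the submitters' processing notes. The deposited FPKM values are those the authors obtained for each assembled transcript, scaled within a library and not between libraries as far as the files show. The sources used here do not state whether strand was kept or how reads with several matches were counted, so overlapping and near-identical genes are uncertain. The notes name GRCh37, but 352 transcripts are placed on scaffolds (KI27 names) that GRCh37 lacks, and all coordinates here are GRCh38.

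Naming and description used Python 3.11.15, pandas 2.3.3 and Biopython 1.88. Spliced transcripts were named by the RefSeq gene on their strand that shared the most GENCODE intron lengths with them (185715 of 193769, or 95.8%). Single-exon transcripts were used only where at least 50% lay in a gene never assembled spliced. A gene's main value was the summed FPKM of its transcripts. Further values were the consensus exon value (exonic bases assembled in at least 50% of libraries) and the core exon value defined with the results, which was added after the data were seen. Tests were limma 3.58.1 (R 4.3.3) on log2(FPKM + 1), which understates changes of low genes, over all 9 libraries, for genes whose mean reached 1 FPKM: 12329 genes, or 11386 with the core exon value. The scripts were tested on simulated data. The depth in reads is unknown, so no counting interval is given.

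The members and gene lists were chosen with earlier results of these data known. All members are named. Of the lists, the genes past the threshold and the 2 most abundant of each list are named; genes called only with the core exon value or the block, TNF, CXCL10, CXCL3 and FLOT1 were added after their values were seen. Replicate numbers were taken to pair libraries, because a tag in the descriptions that reads as a date is shared across doses. Deviations of same-numbered libraries correlated at 0.0784 to 0.106 between 6 and 0 µM with the core exon value, against -0.0791 to -0.0122 for different numbers. With the summed value the ranges were 0.0283 to 0.0474 against -0.0386 to -0.0087. Between 4 and 0 µM the summed value showed no such contrast (-0.00578 to 0.00618 against -0.00666 to 0.00577), but the core exon value did (0.0556 to 0.156 against -0.0910 to 0.0131). The contrast was widest between 6 and 4 µM. There the core exon value gave 0.193 to 0.292 against -0.208 to -0.0649, and the summed value 0.0934 to 0.133 against -0.0876 to -0.0182. Alternatives were the other values, the replicate block, the pseudocount, the filter, 2 scalings, fits of 2 doses and leaving out each library.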

Additional observations from a re-analysis of the deposited data

How the results depend on the processing

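At 6 against 0 µM the members kept a positive difference under every alternative (IER3 read only with the exon values), except ICAM1 without 0 µM replicate 1 (range over left-out libraries -0.052 to 0.55). With the summed value no member was called at this dose by any alternative fit on summed FPKM. SOD2 passed with the consensus exon value and the replicate block (adjusted p = 0.0498), IER3 and, with the block, SOD2 and CXCL8 with the core exon value. At 4 against 0 µM directions were not stable. CXCL1 was at -0.036 with a pseudocount of 0.1 FPKM, at -0.010 scaled to the upper quartile, and between -0.49 and 0.45 with 1 library left out. ICAM1 was at 0.13 with the consensus exon value (with or without the block), 0.17 with the core exon value, 0.29 rescaled to a fixed sum, and between -0.37 and 0.23 with 1 library left out. BCL3 was at -0.0089 scaled to the upper quartile and between -0.086 and 0.14 with 1 library left out. The core exon value without 1 library gave CXCL8 -0.14 to 0.84, CXCL1 -0.49 to 0.45 and ICAM1 -0.037 to 0.31. Between 6 and 4 µM, SOD2 was at 0.35 with the consensus exon value (with or without the block), 0.34 with the core exon value, and between -0.40 and 0.12 with 1 library left out.

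The number of genes past the threshold depended on the value used. For 6 against 0 µM, 38 genes with the summed value became 529 with the consensus exon value, 678 with that value and the replicate block, 824 with the core exon value, 16 rescaled to a fixed sum, 17 with only the 2 doses compared, 4 with the replicate block, and 17 to 74 with 1 library left out. Pathway genes among them were 2, and became 7 with the consensus exon value and the block, 10 with the core exon value, 0 with the block and 1 to 2 with 1 library left out. For 4 against 0 µM, 9 genes became 2 with the block, 3 with the core exon value and 4 to 25 with 1 library left out, with 0 to 1 pathway genes. For 6 against 4 µM, 3 genes became 6 with the consensus exon value, 5 with that value and the block, 5 with no filter, 1 rescaled to a fixed sum, 1 with the block, 0 with the core exon value (545 at an unadjusted p below 0.05) and 2 to 14 with 1 library left out. With the core exon value, leaving out 1 library gave 11 to 815 genes for 6 against 0 µM (lowest without 6 µM replicate 1), 1 to 13 pathway genes (17 with the replicate block), 2 to 13 genes for 4 against 0 µM and 0 to 1 for 6 against 4 µM. The causes were not tested. Same-numbered libraries were paired in the block, which changed no member's call beyond those named here and in the results, and with the core exon value lost 1 pathway gene (TNFRSF12A) and gained 8. The limits are the separate assemblies, in which genes were joined, broken or missing, the unknown depth in reads, and 3 libraries per dose.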
